A study of Sus scrofa with 21 samples.

Results

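Piglets at the ends of a B-cell score, taken from RNA of the distal small intestine, were compared within a series of 21 animals. Total RNA of the distal small intestine had been sequenced from each of the 21 piglets, of Danish Landrace/Yorkshire breed and 24 to 25 days old. The 10 control piglets were reared on a milk replacer, and the 11 others, called starch piglets here, on that replacer plus wheat, given as the starch source. For each piglet a B-cell score was computed as the mean of log2(CPM + 1) over CD79A, CD79B and POU2AF1, where CPM is the gene's summed expected count divided by the library's total and scaled to the usual CPM unit. The 7 highest-scoring piglets (4 starch, 3 control) were set against the 7 lowest-scoring (4 starch, 3 control), whatever the diet, so 14 of the 21 piglets entered the comparison and the other 7 gave the level in between. All 14 thus shared breed, tissue, age and the milk replacer, and differed within each group in the added wheat. The labels name no litter, sex, sampling position or sequencing batch, and no step that separates cell types is described.

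The gut-associated lymphoid tissue of the pig lies in Peyer's patches, clusters of B-cell follicles in the gut wall that extend over much of the ileum. B cells carry an antigen receptor made of immunoglobulin and the signalling chains CD79A and CD79B, pass through germinal centres where antibody genes are mutated and switched, and leave as plasma cells that secrete IgA. The epithelium over a follicle holds M cells, which take up particles from the lumen, and T cells, follicular dendritic cells and macrophages lie in and around the follicles.

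Within the high end the score had a step. Starch 10 scored 6.70, starch 9 scored 6.24 and control 1 scored 4.40. Control 8 followed at 2.95, starch 4 at 2.40, control 2 at 2.19 and starch 3 at 2.17. The step from control 1 to control 8 was 1.45, more than the 0.78 that separated control 8 from starch 3. The middle 7 had a median of 1.80, and the low end held control 5 at 1.44, starch 8 at 1.30, control 3 at 1.24, starch 2 at 1.11, control 10 at 1.06, starch 1 at 0.82 and starch 5 at 0.51. Just outside the high end lay control 4 at 2.16, 0.0083 below starch 3, and just outside the low end lay starch 6 at 1.46, 0.026 above control 5. Both cut points therefore lay in a continuous stretch of values. Below, values of the high-score piglets are given in the order starch 10, starch 9, control 1, control 8, starch 4, control 2, starch 3, and those of the low-score piglets in the order control 5, starch 8, control 3, starch 2, control 10, starch 1, starch 5.

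The 3 score genes are described without a test because they chose the samples. CD79A (ENSSSCG00000033684), the alpha signalling chain of the B-cell receptor, read 87.1, 63.3, 14.7, 6.22, 2.89, 3.70 and 3.43 CPM in the high-score piglets, against 0.236 to 2.40 CPM in the low-score piglets. CD79B (ENSSSCG00000017283), the beta chain, read 100.4, 76.8, 23.5, 3.36, 2.64, 2.42 and 2.21 CPM, against 0.493 to 1.12 CPM. POU2AF1, the B-cell coactivator of octamer factors, read 125, 84.8, 23.5, 13.7, 9.30, 4.98 and 5.40 CPM, against 0.471 to 3.48 CPM. For all 3 genes the 7 high values lay above the 7 low values, and nothing is read from this because these genes formed the groups. In each of them starch 10, starch 9 and control 1 stood well above the other 4 high-score piglets.

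The remaining markers checked the name of the groups. FCRL1, an Fc receptor-like protein of mature B cells, read 36.1, 18.3, 4.65, 2.12, 0.879, 1.42 and 1.59 CPM in the high-score piglets and 0.505 to 1.49 CPM in the low-score piglets, and the groups overlapped. NUGGC, a nuclear GTPase of germinal centre B cells, read 113, 96.3, 22.4, 0.622, 19.3, 3.98 and 2.70 CPM at the high end and 0.248, 12.1, 2.91, 2.32, 13.6, 21.2 and 7.07 CPM at the low end. Outside starch 10, starch 9 and control 1, NUGGC thus did not follow the score, and starch 7 of the middle group read 39.0 CPM. MS4A1, which encodes the B-cell surface protein CD20, read 60.8, 32.1 and 10.6 CPM in the first 3, was at 0 in control 8 and starch 4, and read 0.142 and 0.245 CPM in control 2 and starch 3. A floor of 3 counts corresponds to 0.348 to 0.446 CPM in these libraries, so the values of MS4A1 in the other 4 high-score piglets are under it. The name "B-cell-rich" is thus borne out by defining markers in 3 of the 7 piglets only, and the groups are called high-score and low-score in what follows. In bulk tissue fewer cells of a type and less RNA per cell cannot be told apart.

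**Figure D1:**
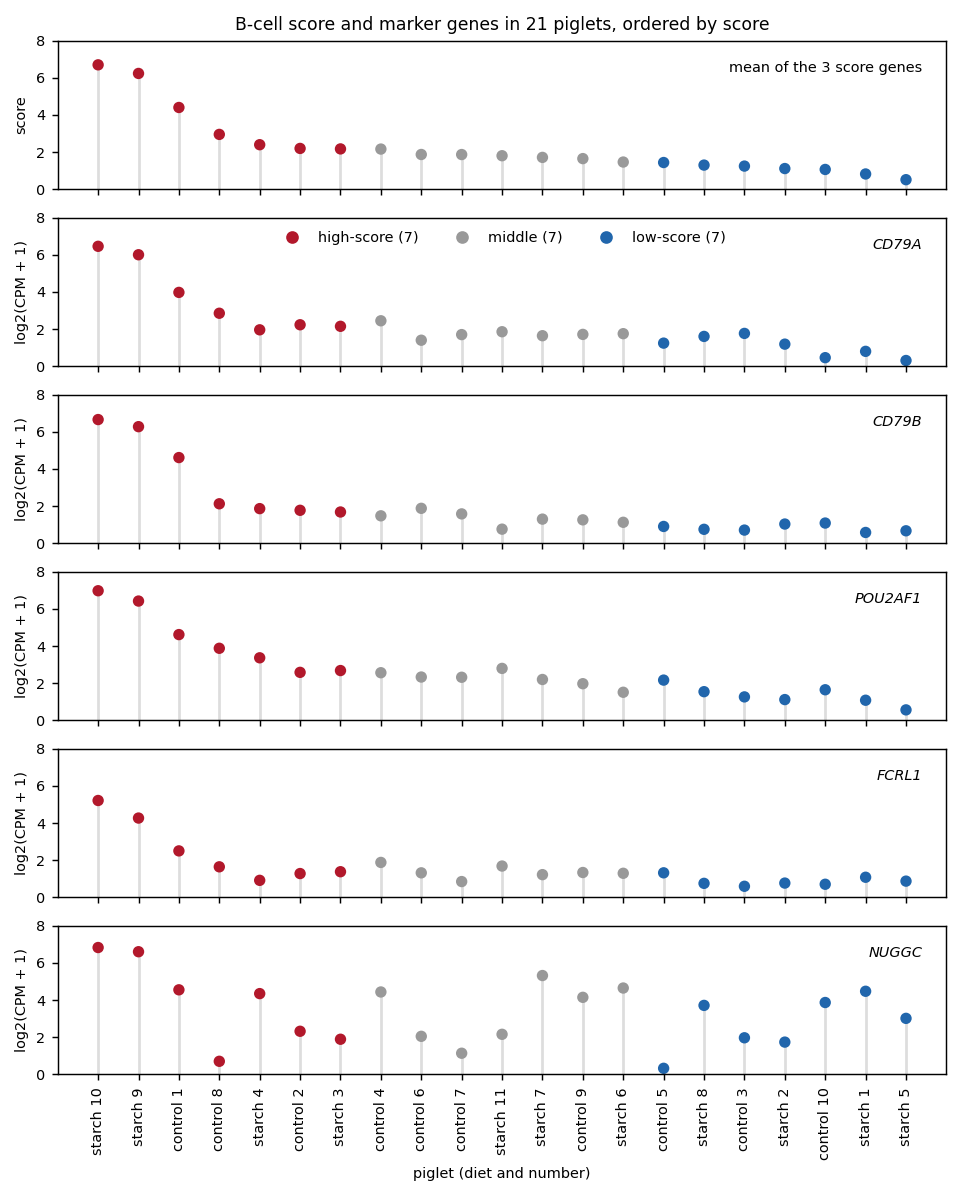
B-cell score and log2(CPM + 1) of 5 marker genes (vertical axes) in each of the 21 piglets, ordered by score along the horizontal axis; red points are the 7 high-score, grey the middle 7 and blue the 7 low-score piglets. Starch 10, starch 9 and control 1 stand above all others for CD79A, CD79B, POU2AF1 and FCRL1, while NUGGC is also high in some middle and low-score piglets, such as starch 7 at 39.0 CPM and starch 1 at 21.2 CPM.

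Library measures did not separate the groups beyond the spread between piglets. Total expected counts lay between 6719264 and 8610458 over the 21 libraries, which listed 15702 to 16335 genes each. Mitochondrially encoded genes took 16.2% ± 2.74 of counts in the high-score piglets (SD, n = 7) and 18.3% ± 3.18 in the low-score piglets (SD, n = 7; two-sided exact permutation test, p = 0.203, adjusted p = 0.494 over 4 measures). The other 3 measures gave adjusted p-values of 0.494 to 0.696 in the same exact test. With 4 starch and 3 control piglets in each group, the diets were equally represented (Fisher's exact test, two-sided, p = 1). Control 8, starch 3 and control 5 stood apart from all other libraries in epithelial genes. The medians of the granulocyte, enterocyte and goblet cell lists and some fold changes are given with and without them.

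Across the transcriptome 13642 genes were tested, and 0 (0%) passed an adjusted p of 0.05 between the high-score and the low-score piglets (edgeR quasi-likelihood test, Benjamini-Hochberg). The smallest adjusted p was 0.0563, and 108 genes had an adjusted p below 0.1, of which 106 were higher and 2 lower in the high-score piglets. Without adjustment 1845 genes (13.5%) had a p of at most 0.05, 1043 higher (7.65%) and 802 lower (5.88%). The call depended on single libraries and on the tool. Without control 5 the same test called 169 genes, without control 1 it called 88, without control 2 or starch 8 it called 1 each, and without any of the other 10 piglets 0, and on all 14 piglets DESeq2 called 311 and voom with sample quality weights 239. Without the 3 highest-scoring piglets, a comparison added after seeing the data, 134 genes were called, 64 higher and 70 lower. Because the piglets were chosen on expression in these same libraries, a p-value below describes how a gene went with the score among them. Values are given with the log2 fold change (high-score minus low-score, from the same fit), its 95% confidence interval and its adjusted p where the gene is not in a B-cell list.

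B-cell receptor and coreceptor genes had higher mean levels in the high-score piglets, with the highest values in 3 animals. Of the 17 tested members, CD79A and CD79B formed the groups and are left out of the counts. All 15 others had a log2 fold change above 0, where 48.8% of all tested genes did, and their median was 1.78 against -0.01 over all genes. The groups overlapped for each of the 15, and 0.154% of all tested genes did not overlap in either direction. Without starch 10, starch 9 and control 1 the median of the 15 was 0.72, with 13 of them above 0. These genes measure the same cells as the score, so nothing is read from their direction. CD22, an inhibitory coreceptor, read 226, 146, 43.0, 15.6, 19.1, 13.2 and 32.5 CPM in the high-score piglets and 22.7, 5.58, 10.1, 5.23, 6.36, 7.52 and 7.42 CPM in the low-score piglets. Control 5 was the highest of the low-score piglets for CD22 and above control 8, starch 4 and control 2. BTK, a kinase that acts downstream of the receptor, read 82.6, 59.7, 16.998, 16.9, 14.8, 14.1 and 20.5 CPM at the high end, 18.7 CPM in control 5 and 3.48 to 9.48 CPM in the other 6 low-score piglets. SYK, the tyrosine kinase recruited by CD79A and CD79B, read 13.7 to 109 CPM at the high end and 6.61 to 27.2 CPM at the low end, again with control 5 highest among the latter. The log2 fold changes of CD22, BTK and SYK were 2.84, 2.06 and 1.83, and 1.20, 1.26 and 1.15 without the 3 highest-scoring piglets.

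Transcription factors of the B-cell lineage divided in the same way. Beside the score gene POU2AF1, 12 members were tested. All 12 had a log2 fold change above 0, with a median of 0.75, whereas 7 of the 12 did so without the 3 highest-scoring piglets, with a median of 0.05. PAX5, which maintains B-cell identity, read 71.2, 29.7 and 10.5 CPM in starch 10, starch 9 and control 1 and at most 0.711 CPM in the other 18 piglets. BACH2, a repressor that holds B cells back from plasma cell fate, read 26.7, 12.4 and 4.38 CPM in the same 3 and at most 1.01 CPM elsewhere. POU2F2, the octamer factor that POU2AF1 binds, was spread more evenly, with 71.9, 56.8, 16.5, 23.6, 10.3, 17.2 and 21.1 CPM at the high end and 13.7, 7.07, 11.9, 5.34, 7.98, 4.68 and 5.54 CPM at the low end. ETS1, shared by B and T cells, read 23.0 to 109 CPM against 18.6 to 53.9 CPM.

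Several germinal centre genes were high in the same 3 piglets only. Of 14 tested members 14 had a log2 fold change above 0 (median 1.55, and 0.44 without the 3 highest-scoring piglets). ELL3, an elongation factor of B cells, read 75.7, 67.1 and 16.5 CPM in starch 10, starch 9 and control 1 and at most 1.46 CPM in the other 18. MEF2B, a regulator of BCL6, read 40.9, 42.0 and 12.1 CPM in those 3 and no more than 3.86 CPM in the other 18 piglets. GCSAM, a germinal centre signalling adaptor, read 28.6, 22.2 and 4.12 CPM, and the other 18 did not exceed 2.02 CPM. The groups overlapped for BCL6, the repressor that maintains the germinal centre programme and which other cells express too. It read 147, 100.03, 25.4, 31.5, 35.1, 14.8 and 61.3 CPM at the high end and 62.2, 14.3, 33.9, 13.2, 15.1, 20.2 and 14.8 CPM at the low end. MYBL1, a MYB family factor of germinal centre B cells, had a log2 fold change of 2.25 over all 14 piglets and -0.95 without starch 10, starch 9 and control 1, so its direction rested on those 3.

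Among the inhibitory and Fc receptor-like proteins, 5 genes were tested and all had a log2 fold change above 0 (median log2 fold change 2.71, and 0.87 without the 3 highest-scoring piglets). FCRLA, an intracellular Fc receptor-like protein of germinal centre B cells, read 44.7, 47.5 and 12.1 CPM in the first 3 piglets and at most 1.74 CPM in the other 18. FCRL3 read 66.8, 51.1 and 11.6 CPM in the first 3 and 4.23 to 7.48 CPM in the other high-score piglets, against 1.16 to 5.59 CPM at the low end. CD72, a coreceptor with an inhibitory motif, was less ordered, with 39.4, 29.8, 7.44, 15.4, 15.96, 4.41 and 30.0 CPM against 3.54 to 12.4 CPM. PTPN6, a phosphatase of all blood cells, read 90.7 to 207 CPM against 70.6 to 103 CPM, and its log2 fold change was 0.72 over all 14 piglets and 0.69 without the 3.

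Counted over the 4 B-cell lists without the 3 score genes, 46 different genes were tested, and for 17 of them (37.0%) starch 10, starch 9 and control 1 were the 3 highest of all 21 piglets. Over all tested genes this held for 117 (0.858%). These 3 piglets were singled out after their values were seen, and the share is a description. For the 17 genes control 1 stood at 12.9% to 58.9% of the level of starch 10, with a median of 20.7%, and starch 9 at 41.6% to 118%, with a median of 71.5%. The 3 animals thus kept the order of their scores for most of these genes, and starch 9 exceeded starch 10 for MEF2B and FCRLA among the genes named above.

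**Figure D2:**
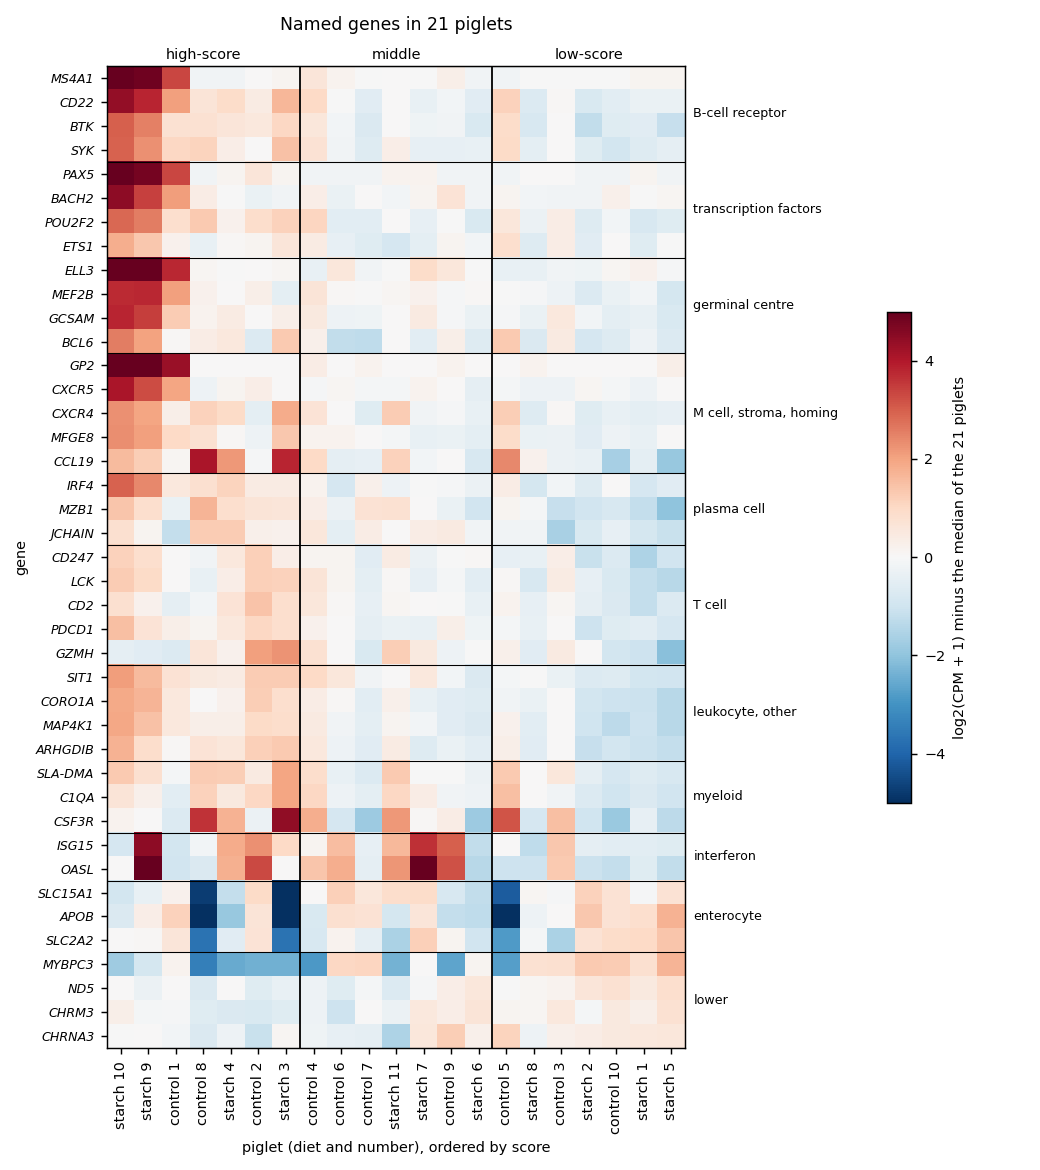
Named genes (rows, grouped by role) in the 21 piglets (columns, ordered by score, with lines between the high-score, middle and low-score groups). Colour is log2(CPM + 1) minus the gene's median over the 21 piglets, on a scale that ends at 5 to either side; MS4A1, PAX5, ELL3 and GP2 are high in the first 3 columns only, SIT1 and CORO1A across the 7 high-score piglets, and the enterocyte genes are low in control 8, starch 3 and control 5.

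Among genes of M cells and follicle-associated epithelium, GP2 set the same 3 piglets apart from all others. GP2, the uptake receptor that marks mature M cells, read 68.9, 40.2 and 18.9 CPM in starch 10, starch 9 and control 1. It was at 0 in the other 4 high-score piglets and at most 0.297 CPM, or 2 expected counts, in any of the other 18. GP2 entered the set of tested genes through those 3 piglets alone, so neither a fold nor a p is given. SPIB, the factor that M cells and B cells both need, was named after its values were seen. It read 41.1, 32.3, 17.3, 0.747, 7.04, 8.11 and 1.84 CPM at the high end against 1.74 to 11.4 CPM at the low end, with the lowest value of all in control 8. AIF1, which macrophages also express, had a different order, at 24.5, 13.3, 12.1, 41.9, 31.5, 18.9 and 43.5 CPM, against 5.66 to 30.5 CPM (log2 fold change 1.00, interval 0.23 to 1.77, adjusted p = 0.283). Of the 8 tested genes of the list, GP2 included, 7 had a log2 fold change above 0, with a median of 0.73, and 0.33 without the 3. Because GP2 is among them only through those 3 piglets, the count and the medians are a description.

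Stromal and homing genes had mixed orders. Of 17 tested lymphoid chemokines, receptors and positioning genes, 15 had a log2 fold change above 0 and 0 passed the test (median 1.24). CXCR5 and S1PR4 were among the 17 only through the high-score piglets, so the count above 0 and the median are a description. CXCR5, the receptor that draws B cells and follicular helper T cells into follicles, read 21.7, 12.1 and 4.25 CPM in the 3 highest-scoring piglets and at most 0.711 CPM in the other 18. CXCR4, which retains cells in the dark zone of germinal centres and is widely expressed by leukocytes, read 94.0, 76.9, 22.7, 43.1, 37.3, 12.9 and 69.5 CPM against 44.9 CPM in control 5 and 11.6 to 19.2 CPM in the other low-score piglets (log2 fold change 1.45, interval 0.67 to 2.23, adjusted p = 0.127). S1PR4, a lymphocyte receptor for sphingosine phosphate, read 0.747 to 5.58 CPM against 0.232 to 0.952 CPM, with no test given because its mean reached 1 CPM only through the high-score piglets. ITGB7, the integrin chain of gut homing, was highest in control 2 and starch 3, at 98.1 and 93.2 CPM, and read 40.0 to 79.7 CPM in the other high-score piglets against 19.6 to 61.5 CPM at the low end (log2 fold change 1.02, interval 0.46 to 1.58, adjusted p = 0.135). Of 9 tested genes of follicular dendritic cells and lymphoid stroma, 8 had a log2 fold change above 0 and 0 passed (median 0.64). MFGE8, which follicular dendritic cells use to help clear dying cells, read 242, 199, 96.9, 81.1, 50.3, 40.2 and 125 CPM against 91.4 CPM in control 5 and 31.6 to 49.1 CPM in the others (log2 fold change 1.30, interval 0.61 to 1.98, adjusted p = 0.113, and 0.72 without the 3 highest-scoring piglets). CCL19, the T-zone chemokine, had its highest values in control 8 and starch 3, at 252 and 209 CPM. Control 5 of the low-score group followed at 76.7 CPM, and these were the 3 libraries low in epithelial genes. The log2 fold change of CCL19 was 2.36 (interval 0.66 to 4.05, adjusted p = 0.256), and 1.84 without those 3 libraries. CLU, a secreted chaperone that follicular dendritic cells express, was highest in starch 10, starch 9, control 8, starch 3 and control 5, at 684, 532, 583, 502 and 631 CPM, and at most 204 CPM in the other 9 piglets of the comparison.

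Genes of survival signalling through BAFF and CD40 overlapped between the groups. Of 13 tested genes 12 had a log2 fold change above 0, with a median of 0.39, and 0 passed the test. TNFSF13B, which encodes BAFF, read 5.70, 5.47, 1.46, 5.23, 4.52, 0.996 and 7.73 CPM against 0.348 to 6.46 CPM, with control 5 again the highest of the low-score piglets (log2 fold change 1.37, adjusted p = 0.336). CD40, the receptor for T-cell help, read 6.40 to 45.6 CPM against 4.06 to 23.0 CPM (log2 fold change 1.20, interval 0.23 to 2.17, adjusted p = 0.298). BCL2A1, a survival gene of the BCL2 family, was highest in starch 3 at 65.2 CPM, against at most 19.0 CPM in the other 6 high-score piglets (log2 fold change 1.82, adjusted p = 0.236).

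T-cell genes had higher mean levels in the high-score piglets, and their highest values were often outside the first 3. Of 16 tested genes 15 had a log2 fold change above 0, and the median of 0.95 was 1.17 without the 3 highest-scoring piglets. The summed level of the list was 137 to 409.7 CPM at the high end and 67.4 to 214 CPM at the low end, so the groups overlapped, and 0 genes passed the test. CD247, the zeta chain of the T-cell receptor complex, read 15.5, 12.3, 6.51, 5.73, 9.93, 16.4 and 8.34 CPM against 4.59, 4.76, 8.46, 2.44, 3.62, 1.60 and 2.83 CPM (log2 fold change 1.40, interval 0.69 to 2.10, adjusted p = 0.0978). LCK, the kinase of T-cell receptor signalling, read 54.8, 44.2, 22.04, 16.9, 27.6, 52.3 and 50.4 CPM against 7.90 to 29.8 CPM (log2 fold change 1.27, interval 0.61 to 1.93, adjusted p = 0.106). CD2 and CD8B, of which CD8B marks cytotoxic T cells, were both highest in control 2, at 112 and 13.7 CPM, a piglet that ranked sixth by score. PDCD1, which encodes PD-1, a receptor high on follicular helper T cells, read 7.60, 3.84, 2.66, 2.36, 3.39, 5.26 and 4.41 CPM against 0.465 to 2.02 CPM, and the groups did not overlap (log2 fold change 1.77, interval 1.10 to 2.44, adjusted p = 0.073). Without the 3 highest-scoring piglets its log2 fold change was 1.74. Of the 6 tested genes of the follicular helper T-cell list 5 had a log2 fold change above 0 (median 0.91), CXCR5 among them. CXCR5 was tested only through the high-score piglets, so this count and median are a description.

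Among cytotoxic genes, GZMH and CCL5 were lowest in those high-score piglets where B-cell genes were highest, and this order was not counted over the list. All 12 tested cytotoxic genes had a log2 fold change above 0, with a median of 0.77, which was 1.11 without the 3 highest-scoring piglets, and 0 passed. GZMH, a granzyme of killer cells, read 46.8, 43.4 and 39.8 CPM in starch 10, starch 9 and control 1, 99.1 and 74.4 CPM in control 8 and starch 4, and 267 and 310.5 CPM in control 2 and starch 3, against 14.6 to 89.4 CPM at the low end (log2 fold change 1.36, interval 0.21 to 2.50, adjusted p = 0.311). Starch 10, starch 9 and control 1 therefore had the lowest GZMH of the 7. CCL5, a chemokine released by such cells, was split in the same way, with 27.1, 21.4 and 18.3 CPM in those 3 and 50.3 to 84.9 CPM in the other 4 high-score piglets. With the score as a number over all 21 piglets the slopes of GZMH and CCL5 were below 0.

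Plasma cell genes had their highest values in different piglets from gene to gene. Of 12 tested genes 10 had a log2 fold change above 0 (median 0.58, and 0.57 without the 3 highest-scoring piglets), and 0 passed. IRF4, which drives plasma cell fate, read 20.9, 14.2, 3.19, 3.98, 5.15, 2.85 and 2.82 CPM against 0.544 to 2.73 CPM, and the groups did not overlap (log2 fold change 2.47, interval 1.42 to 3.51, adjusted p = 0.0842, and 1.60 without the 3 highest-scoring piglets). MZB1, a chaperone of antibody assembly, read 20.7, 13.96, 5.58, 26.1, 13.9, 11.9 and 11.6 CPM against 1.06 to 8.19 CPM (log2 fold change 1.86, interval 1.03 to 2.70, adjusted p = 0.0844). JCHAIN, the joining chain of secreted IgA and IgM, was highest in control 8 and starch 4, with 186, 116, 46.7, 259, 258, 128 and 124 CPM against 94.7, 94.4, 34.1, 62.5, 79.5, 58.3 and 48.7 CPM (log2 fold change 1.23, interval 0.49 to 1.97, adjusted p = 0.174). Control 1, with the third highest B-cell score, had the lowest JCHAIN of the high-score piglets, below 6 of the 7 low-score piglets. MZB1 and JCHAIN had log2 fold changes of 2.05 and 1.57 without the 3 highest-scoring piglets. DERL3, of protein quality control in the endoplasmic reticulum, read 6.37 to 15.97 CPM against 2.71 to 8.09 CPM (log2 fold change 1.09, interval 0.57 to 1.61, adjusted p = 0.0844).

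**Figure D3:**
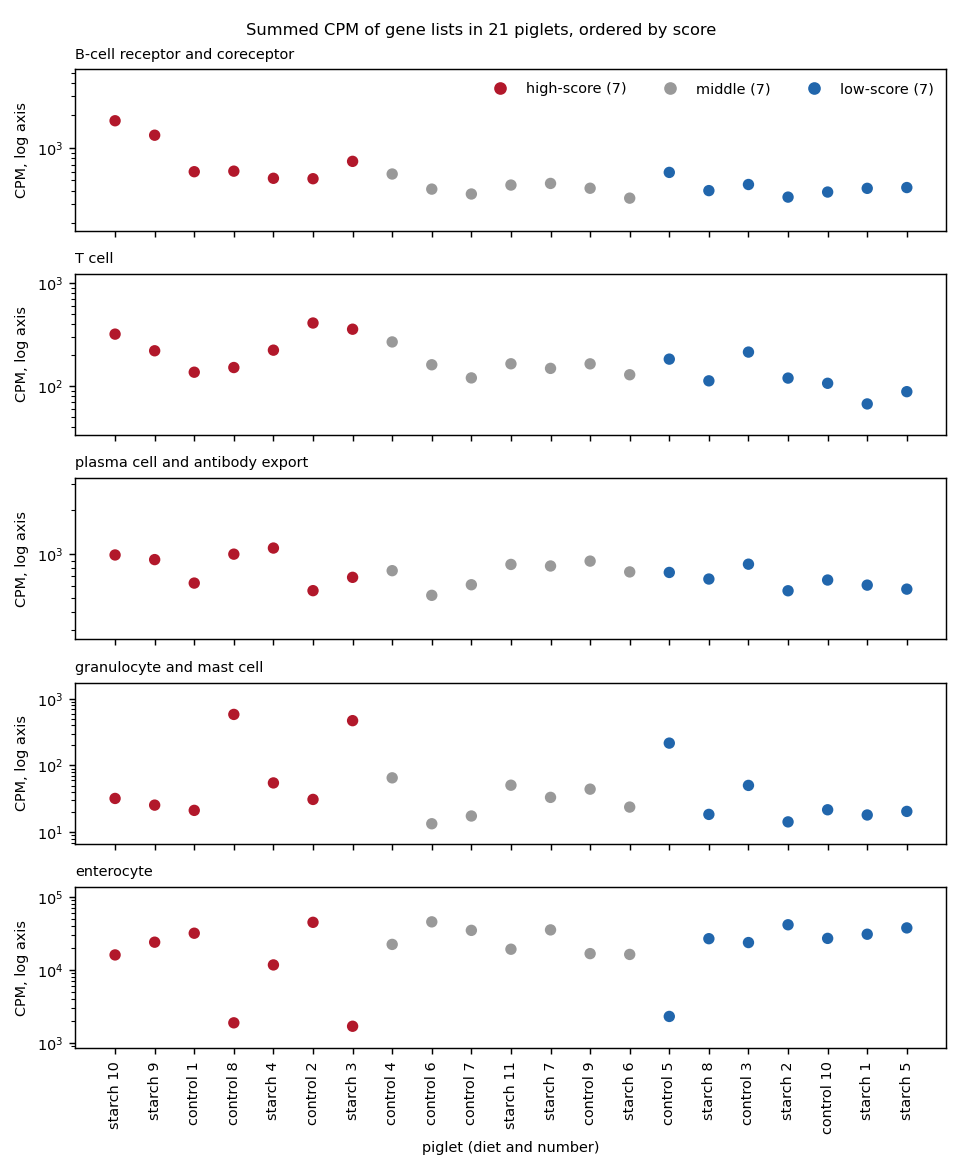
Summed CPM (vertical axes, log scale) of 5 gene lists in the 21 piglets, ordered by score along the horizontal axis; red points are the 7 high-score, grey the middle 7 and blue the 7 low-score piglets. The B-cell receptor sum stands out in starch 10 and starch 9, the T-cell sum is highest in control 2 at 409.7 CPM, and granulocyte sums are highest and enterocyte sums lowest in control 8, starch 3 and control 5.

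Antigen presentation genes had higher mean levels at the high end. All 9 tested MHC class II genes had a log2 fold change above 0 (median 0.95), and 0 passed. SLA-DOA, part of a modulator of peptide loading found mainly in B cells, read 34.9, 22.2, 10.9, 13.7, 12.9, 17.1 and 31.5 CPM against 22.1 CPM in control 5 and 3.30 to 10.9 CPM in the others (log2 fold change 1.13, interval 0.40 to 1.87, adjusted p = 0.207). SLA-DMA, of the peptide exchange complex, was highest in starch 3 at 171 CPM and read 39.0 to 107 CPM in the other high-score piglets, against 105 CPM in control 5 and 23.2 to 63.3 CPM in the others. Of 13 tested macrophage genes 12 had a log2 fold change above 0 (median 0.90). C1QA, a complement chain made by tissue macrophages, read 189, 143, 82.3, 265, 165, 243 and 471 CPM against 342 CPM in control 5 and 59.2 to 119 CPM in the others (log2 fold change 0.96, interval 0.08 to 1.83, adjusted p = 0.345). Granulocyte genes split the groups from within. CSF3R, the receptor for granulocyte colony-stimulating factor, read 91.6 and 163 CPM in control 8 and starch 3 and 65.9 CPM in control 5, against 1.12 to 24.5 CPM in the other 11 piglets. S100A8, a neutrophil calcium-binding protein, read 72.2, 41.2 and 16.01 CPM in those 3 and at most 0.253 CPM in the other 11. The median log2 fold change of the 6 tested genes of the granulocyte and mast cell list was 1.35, and 0.40 without control 8, starch 3 and control 5. Dendritic cell genes had a median of 0.50, and CCR7, which guides cells to lymphoid tissue and is expressed by T and B cells too, read 4.12 to 14.96 CPM against 0.348 to 9.06 CPM.

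Cell cycle genes had small differences in a single direction. All 17 tested had a log2 fold change above 0, between 0.38 and 0.89 (median 0.64), and 0 passed. MCM5, of the replicative helicase, read 65.5, 74.1, 30.8, 71.3, 42.3, 50.1 and 91.5 CPM against 17.4 to 49.3 CPM (log2 fold change 0.78, interval 0.29 to 1.26, adjusted p = 0.185). PLK1, a mitotic kinase, overlapped between the groups, with 29.5 to 130.1 CPM against 18.6 to 103 CPM. Control 1 had the lowest value of the high-score piglets for both genes, although only starch 10 and starch 9 had a higher score.

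Absorptive epithelial genes leaned lower at the high end, and the groups overlapped for every gene tested. Of 17 tested enterocyte genes 14 had a log2 fold change below 0, with a median of -0.49, and 0 passed the test. APOB, the structural protein of chylomicrons, read 23.1 and 3.68 CPM in control 8 and starch 3 and 41.8 CPM in control 5. The other 5 high-score piglets read 1012 to 8346 CPM and the other 6 low-score piglets 3174 to 12466 CPM. Its log2 fold change was -0.97 (interval -3.41 to 1.47, adjusted p = 0.661). The value was -1.70 without the 3 highest-scoring piglets and -0.70 without control 8, starch 3 and control 5. SLC15A1, the peptide carrier of the brush border, showed the same 3 piglets at 2.49, 1.35 and 4.22 CPM and the other 11 of the comparison at 39.8 to 209.6 CPM. Summed over the list, starch 10, starch 9 and control 1 held 16046, 23970 and 31798 CPM, within the 11711 to 45496 CPM of all piglets other than control 8, starch 3 and control 5. Without control 8, starch 3 and control 5 the median of the list was -0.26. The goblet cell list had a median of 0.15, which was -0.18 without those 3. AGR2, a protein disulfide isomerase of mucus cells, read 1299, 670.2 and 882 CPM in them and 21.7 to 126 CPM in the other 11. Ileal bile acid genes had a median of -0.14. FGF19, the hormone that ileal enterocytes release in response to bile acids, read 7.98, 13.96, 14.1, 0.124, 0.754, 3.41 and 0 CPM at the high end and 0, 15.5, 24.8, 21.6, 14.3, 6.90 and 5.89 CPM at the low end (log2 fold change -1.25, interval -3.23 to 0.74, adjusted p = 0.507). Without the 3 highest-scoring piglets the value of FGF19 was -3.52, with control 8 and starch 3 among the 4 high-score piglets left. Without control 8, starch 3 and control 5 it was -0.97. Whether these libraries set the differences of other lists was not tested beyond the values given without them.

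Muscle, matrix, nerve and vessel genes had small fold changes. The medians were 0.27 for 14 smooth muscle genes, 0.35 for 11 fibroblast and matrix genes, -0.13 for 13 genes of enteric neurons and glia and -0.18 for 9 endothelial genes, and 0 genes passed. TAGLN, a smooth muscle actin-binding protein, was highest in control 8, starch 3 and control 5, at 2746, 1949 and 1764 CPM, with starch 4 next at 1673 CPM. CHRNA3, an acetylcholine receptor subunit of enteric neurons, read 3.93, 3.95, 3.45, 1.99, 3.14, 1.28 and 4.29 CPM against 3.13 to 9.81 CPM (log2 fold change -0.94, interval -1.46 to -0.42, adjusted p = 0.135). KDR, a vascular growth factor receptor of endothelium, read 20.2 to 31.1 CPM against 22.03 to 49.8 CPM (log2 fold change -0.49, interval -0.79 to -0.18, adjusted p = 0.185). All 13 mitochondrially encoded genes had a log2 fold change below 0 (median -0.23). ND5, a subunit of respiratory complex I, read 6710.0, 5469, 6818, 4036, 6782, 4466 and 5149 CPM against 6606, 7088, 7599, 10330.1, 11391, 9396 and 11989 CPM (log2 fold change -0.75, interval -1.19 to -0.31, adjusted p = 0.162). Only control 5 of the low-score piglets lay within the range of the high-score values for ND5.

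Interferon genes had their highest values in single animals. All 19 tested had a log2 fold change above 0 (median 0.96, and 0.67 without the 3 highest-scoring piglets), and 0 passed. ISG15, a ubiquitin-like protein induced by interferon, read 7.86, 354, 7.44, 13.6, 56.4, 77.5 and 30.8 CPM at the high end and 15.02, 5.57, 40.3, 10.7, 10.2, 10.1 and 9.66 CPM at the low end (log2 fold change 2.41, interval 0.73 to 4.09, adjusted p = 0.241). The fold change of ISG15 was 1.50 without starch 10 and starch 9, and 0.46 with the replicate number as a block over all 21 piglets. Starch 10 and control 1, with the first and the third highest score, were below 6 of the 7 low-score piglets. OASL, an antiviral protein of the oligoadenylate synthetase family, read 236 CPM in starch 9, 41.2 CPM in control 2 and 13.9 CPM in starch 4, against 0.825 to 9.73 CPM at the low end, while starch 7 of the middle group reached 151 CPM.

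**Figure D4:**
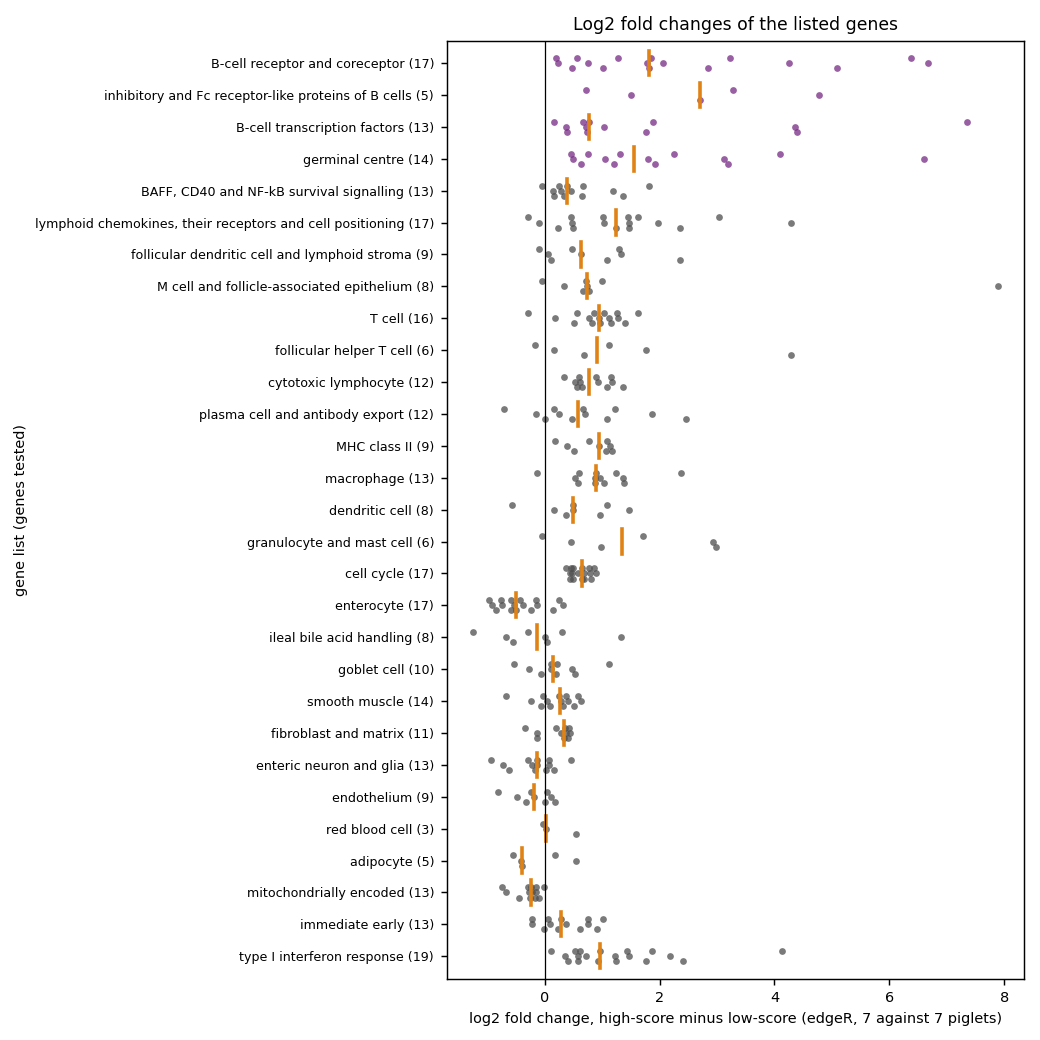
Log2 fold change between the 7 high-score and the 7 low-score piglets (horizontal axis) for each tested gene of 29 lists (rows, with the number of genes tested); each point is a gene and the orange bar is the list's median. Purple points are the 4 B-cell lists; all of their genes, the score genes included, lie above 0, as do the cytotoxic, MHC class II, cell cycle and interferon lists, and all 13 mitochondrially encoded genes lie below 0.

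Of the 15 genes outside the lists with higher levels at the high end and the smallest p, 7 are described here. SIT1, an adaptor that tunes signalling of the T-cell receptor, had the smallest p of all, with 20.7, 14.5, 7.44, 6.22, 5.78, 11.4 and 11.4 CPM against 3.85, 4.08, 3.03, 2.21, 2.24, 1.73 and 1.65 CPM and no overlap (log2 fold change 1.98, interval 1.37 to 2.60, adjusted p = 0.0563). VPREB1, the surrogate light chain of immature B cells, read 5.96, 5.82, 1.73, 2.74, 1.38, 0.427 and 2.58 CPM against at most 0.497 CPM at the low end, where control 5 held 4 expected counts and no other low-score piglet more than 1. Its mean reached 1 CPM only through the high-score piglets, so no test is given. Unlike PAX5 or MS4A1, VPREB1 was above the floor in control 8, starch 4 and starch 3, at 22, 11 and 21 expected counts. CORO1A, an actin regulator of leukocytes, read 286, 248, 111, 77.5, 89.7, 181 and 138 CPM against 28.4 to 76.3 CPM (log2 fold change 1.67, interval 1.05 to 2.29, adjusted p = 0.0697), and MAP4K1, a kinase of blood cells, read 94.0, 67.8, 34.4, 29.5, 29.4, 47.1 and 44.3 CPM against 8.37 to 27.7 CPM (log2 fold change 1.66, interval 1.04 to 2.28, adjusted p = 0.0697). Neither overlapped between the groups. ARHGDIB, an inhibitor of small GTPases in blood cells, read 50.7 to 164 CPM against 20.6 to 60.1 CPM (log2 fold change 1.57, interval 1.02 to 2.13, adjusted p = 0.0697). Without the 3 highest-scoring piglets the log2 fold changes were 1.75 for SIT1, 1.38 for both CORO1A and MAP4K1 and 1.64 for ARHGDIB, so these values were also present with the other 4 high-score piglets alone. PTPRCAP, which binds the phosphatase CD45, had a log2 fold change of 1.60 and UCP2, a mitochondrial carrier abundant in immune cells, one of 1.78, and these were 1.36 and 1.34 without the 3.

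**Figure D5:**
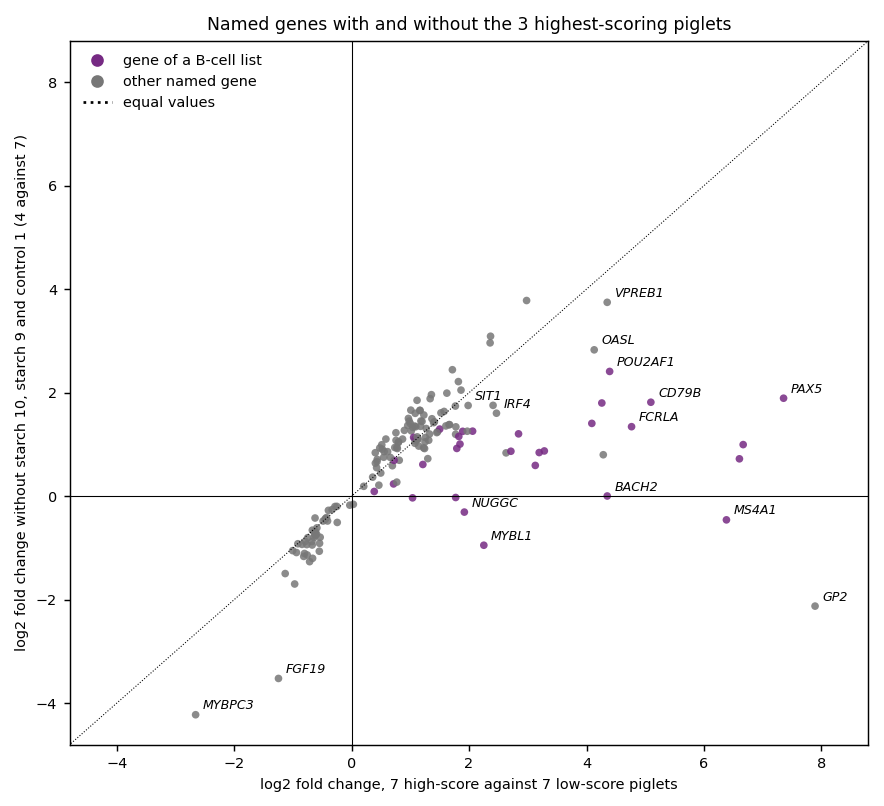
Log2 fold change of each named gene between high-score and low-score piglets, with all 7 high-score piglets (horizontal axis) and without starch 10, starch 9 and control 1 (vertical axis, 4 against 7 piglets); purple points are genes of the B-cell lists, grey points other named genes, and the dotted line marks equal values. MS4A1, PAX5, BACH2 and GP2 lie far below the line, whereas SIT1, VPREB1 and most other genes lie near it. GP2, VPREB1, MS4A1, PAX5 and BACH2 are among the genes tested only through their levels in high-score piglets, so their places are a description.

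Among the 15 genes with lower levels at the high end named by smallest p, the largest difference was that of MYBPC3, a myosin-binding protein known from heart muscle, with 3.68, 7.56, 17.1, 0.498, 1.76, 1.99 and 1.96 CPM against 1.37 CPM in control 5 and 25.8 to 50.6 CPM in the other 6 low-score piglets (log2 fold change -2.66, interval -4.18 to -1.13, adjusted p = 0.146). In the middle group MYBPC3 read 1.19, 2.07 and 1.52 CPM in control 4, starch 11 and control 9 and 14.8 to 32.3 CPM in the other 4. Its log2 fold change was -4.22 without the 3 highest-scoring piglets. MCU, the pore of the mitochondrial calcium uniporter, read 23.9 to 44.4 CPM against 26.9 to 68.1 CPM (log2 fold change -0.62, interval -0.96 to -0.28, adjusted p = 0.135). CHRM3, a muscarinic receptor of muscle and epithelium, read 2.99 to 7.22 CPM against 5.23 to 10.4 CPM (log2 fold change -0.82, interval -1.26 to -0.37, adjusted p = 0.134).

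Complete separation of the 2 groups was rare. It was seen for 20 genes higher (0.147%) and 1 gene lower (0.00733%) at the high end, of which 7 had no symbol. Besides CD79A, CD79B, POU2AF1, PDCD1, IRF4, SIT1, CORO1A and MAP4K1, the genes that separated were named after their values were seen. CSK, the kinase that restrains SRC family kinases, read 61.6 to 148 CPM against 35.1 to 61.2 CPM. EAF2, an elongation factor partner, read 49.6, 33.1 and 12.6 CPM in the first 3 piglets and 2.99 to 5.23 CPM in the other 4, against 1.63 to 2.95 CPM at the low end. METTL27, MED6 and SNX14 separated with small differences, at log2 fold changes of 0.77, 0.43 and 0.36. RAB11FIP4, an effector of recycling endosomes, was the gene lower in all 7 high-score piglets, at 2.76 to 5.44 CPM against 5.61 to 8.13 CPM (log2 fold change -0.64, adjusted p = 0.185).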

How the data were processed

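RNA came from miRNAeasy kits and libraries followed the sequencing provider's standard protocol, per the labels' protocols. The authors deposited, per the file headers, an expected count (an estimated read count) and an FPKM value for each transcript of each piglet. HISAT and DESeq2 are named without a role in the submitters' processing notes, and counter and genome build were not given in the sources used here. Of 39105 transcripts, summed to 18661 genes, 14276 genes (76.5%) had a symbol, and 99.97% of transcript lengths were multiples of 3, as coding lengths are. Gene sums of expected counts were rounded for testing.

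The score that chose the piglets, the comparison, the members and the gene lists were chosen with earlier results of these data known. Genes with a mean of at least 1 CPM over 21 piglets were tested with edgeR 4.0.16 in R 4.3.3 (quasi-likelihood test, TMM scaling, Benjamini-Hochberg adjustment, threshold 0.05). Some listed genes, such as GP2, MS4A1, PAX5, BACH2, CXCR5 and S1PR4, reached that mean only through the high-score piglets. The counts and medians of their lists include them and are a description. CPM values in the text are unscaled, and fold changes are TMM-scaled. The method was tested on simulated data. The labels say the samples are separate piglets but name no litter or batch. Genes were summarised in 29 lists: 4 of B cells, and others of survival signals, chemokines, lymphoid stroma, M cells, T, follicular helper and cytotoxic cells, plasma cells, MHC class II, myeloid cells, cell cycle, epithelium, bile acids, muscle, matrix, nerve, endothelium, red blood cells, adipocytes, mitochondria, immediate early and interferon genes. Red blood cell, adipocyte and immediate early lists had medians of 0.03, -0.40 and 0.28, with 0 genes called. Named genes were the 5 markers, up to 8 members of each B-cell list and 4 of each other list with the smallest p, and 15 genes outside the lists per direction by smallest p, since no gene passed the threshold; the text gives a selection of them. Genes named outside that rule are said to be so, and some genes that the rule names are not reported here. Alternatives were other scalings, filters, covariates, score definitions, left-out piglets, FPKM with limma 3.58.1, voom and DESeq2 1.42.0. Figures were drawn with matplotlib 3.10.9 in Python 3.11.15.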

Additional observations from a re-analysis of the deposited data

Results flagged for a closer look

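In 25 of 166 groups of 7 piglets checked, over 79 genes and 4 library measures, the highest or the lowest value stood far from the others by Dixon's test. The rate of about 1 in 20 for that test, or 8.3, holds for independent and normally distributed values. That was not checked for these CPM values, so no excess is read from the count. Most of the 25 outlying values belonged to control 5 of the low-score group. It was far above the other 6 for some genes that B cells express. CD22 read 22.7 CPM, BTK 18.7 CPM, SYK 27.2 CPM, BCL6 62.2 CPM and VPREB1 0.497 CPM, or 4 expected counts. Defining B-cell genes went the other way, with 0 expected counts of MS4A1, PAX5 and ELL3 in control 5 and 0.248 CPM of NUGGC. A higher B-cell content of control 5 is therefore not read from these values. The same piglet stood out for myeloid and antigen presentation genes, with 342 CPM of C1QA, 30.5 CPM of AIF1, 65.9 CPM of CSF3R, 16.01 CPM of S100A8, 22.1 CPM of SLA-DOA and 6.46 CPM of TNFSF13B. Stromal and positioning genes did so too, with 76.7 CPM of CCL19, 91.4 CPM of MFGE8, 631 CPM of CLU and 44.9 CPM of CXCR4, as did AGR2 at 882 CPM, and control 5 listed 16180 genes.

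Control 3 was the highest low-score piglet for GCSAM at 2.02 CPM, ISG15 at 40.3 CPM and OASL at 9.73 CPM. Among the high-score piglets, starch 9 stood apart for ISG15 at 354 CPM and OASL at 236 CPM. Starch 10 did so for PAX5 at 71.2 CPM, starch 3 for BCL2A1 at 65.2 CPM and control 1 for MYBPC3 at 17.1 CPM.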

How the results depend on the processing

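The count of genes called between high-score and low-score piglets was 0 with edgeR on all 14, and it moved with several choices. DESeq2 called 311 genes, voom with sample quality weights 239, and edgeR without a filter on low counts 4. With all 21 piglets the 3-level fit called 159 and the score as a number 291. An enterocyte score as a covariate gave 98 and a smooth muscle score 200. Leaving out each piglet in turn gave 0 to 169 genes: 169 without control 5, 88 without control 1, and 1 without control 2 or starch 8. Without control 5, control 8 and starch 3 there were 122, and without the 3 highest-scoring piglets, chosen after seeing the data, 134. The cause was not tested. The other alternatives gave 0, among them upper-quartile and RLE scaling, limma on FPKM, diet as a covariate and other score definitions. Replicate numbers did not pair control and starch piglets: over 10 shared numbers the correlation of deviations ran from -0.34 to 0.47, and 0 control samples correlated best with their own number. With the number as a block, over all 21 piglets, 0 genes were called and the smallest adjusted p was 0.146. Of 6031 alternative values of 164 named genes, 5545 kept direction and side of the threshold, 440 passed the threshold and 46 changed sign. The sign changes were in 22 genes such as MYBL1, MS4A1 and NUGGC. Because the main fit called 0 genes, no named gene could lose a call. Counts limit genes near the floor of 3 counts, such as GP2 and MS4A1 in 18 piglets.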

Other observations

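Starch 10, starch 9 and control 1 were the 3 highest of all 21 piglets for 117 of 13642 tested genes (0.858%). Of these 117, 94 were in none of the lists. For 31 of the 117 the lowest of the 3 values was at least 2 times the highest of the other 18, and for the rest the margin was smaller. The genes given here were chosen after their values were seen. ENSSSCG00000028674, which has no symbol in the files, read 689.6, 502 and 142 CPM in those 3 piglets and at most 1.87 CPM in the other 18. ZP3, a glycoprotein known from the egg coat, read 24.3, 31.6 and 6.91 CPM and at most 0.142 CPM, or 1 expected count, in the other 18. For both genes no value of the other 18 piglets was close to that of control 1.

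VPREB3, a chaperone of the B-cell receptor, read 37.6, 34.3 and 8.23 CPM in starch 10, starch 9 and control 1 and at most 2.08 CPM elsewhere. TLR10, a receptor expressed by B cells, read 20.7, 11.5 and 5.44 CPM against at most 2.56 CPM. CNR2, the cannabinoid receptor of immune cells, read 14.2, 10.7 and 3.72 CPM against at most 1.06 CPM. RASAL1, a negative regulator of RAS, read 13.8, 13.49 and 3.45 CPM against at most 0.680 CPM. AFF2, a nuclear protein of the AF4 family, read 65.5, 34.8 and 9.43 CPM against at most 3.10 CPM.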
